A study of Mus musculus with 6 samples.

Results

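The Ms4a genes encode small membrane proteins, the best known of which is CD20, and 8 of them were followed here from mouse B cells to plasma cells: Ms4a1 (the CD20 gene), Ms4a4b, Ms4a4c, Ms4a4d, Ms4a6b, Ms4a6c, Ms4a6d and Ms4a7. A probe set, the group of array probes that reports a transcript, was taken for every case in which its single annotated symbol was one of these names, which gave 16 of the 45037 probe sets tested and 8 of the 18193 genes with a symbol. Ms4a4d had 1 probe set, Ms4a6d had 3 and the other 6 genes had 2 each. All samples were of the C57BL/6 strain and were hybridised to 1-colour Affymetrix arrays. One group was 3 arrays of bone marrow plasma cells, sorted as B220- CD138+ at 7 days after a boost with the protein antigen KLH, with 50000 to 70000 cells per array. The other was 3 arrays of naive splenic B cells, sorted as B220+ CD23+, with 2000000 to 3000000 cells per array. No boost is named for the B cells, so organ, boost, bead enrichment and input cannot be told apart from cell type, and no age is given for either group. The labels do not say whether the arrays of a group came from separate animals, so the p-values measure the spread between these arrays, which may be technical.

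Proteins of this family cross the membrane several times and leave both ends in the cytoplasm. CD20 is carried by mature B cells, takes part in calcium entry after engagement of the B cell receptor, and is the target of therapeutic antibodies that spare most antibody-secreting plasma cells because these carry little of it. Other members are known mainly from T cells, macrophages and mast cells, and the genes lie side by side in a cluster.

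The transcripts of the sort markers were on the side of their gates. Fcer2a, which encodes CD23, was at 6032 ± 868 (SD, n = 3) in B cells and 48.1 ± 4.0 in plasma cells, and Sdc1, which encodes CD138, at 1072 ± 107 and 12911 ± 282. B cell array 1 stood apart from the other B cell arrays, with correlations across probe sets of 0.933 and 0.926 with them where arrays 2 and 3 had 0.992. Its Xist level was 8408 against 30.8 and 18.1 on arrays 2 and 3, while the plasma cell arrays were between 8070 and 8702. Without B cell array 1, cell type and this sex-linked transcript therefore cannot be told apart. Every fold change of the members was computed with and without that array. The background level, the 95th percentile of 27 bacterial control probe sets, lay between 23.0 and 41.8 on the 6 arrays.

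The 8 members were lower in plasma cells throughout their measurable probe sets. Of the 16 probe sets 14 fell and 0 rose (limma, Benjamini-Hochberg adjusted p under 0.05 over all 45037 probe sets), where 12.8% of all probe sets were called lower and 13.4% higher. At an unadjusted p under 0.05, too, 0 were higher. Each of the 8 genes had at least 1 probe set that fell. On 14 probe sets all B cell arrays were above all plasma cell arrays, a separation seen in that direction for 24.6% of all probe sets. In either direction the groups did not overlap on 15, the last being 1449539_at of Ms4a6d, which lay within background, and on 45.4% of all probe sets. The median log2 fold change of the 16 was −2.69, against −0.13 over all probe sets. Fold changes compare plasma cells with B cells on the scale log2(intensity + 16), which understates the change of dim probe sets. Without B cell array 1 the same count of 14 fell, where 20.7% of all probe sets were called lower, and the median was −2.43. In these bulk samples, fewer cells that carry a transcript and less of it per cell cannot be told apart.

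**Figure D1:**
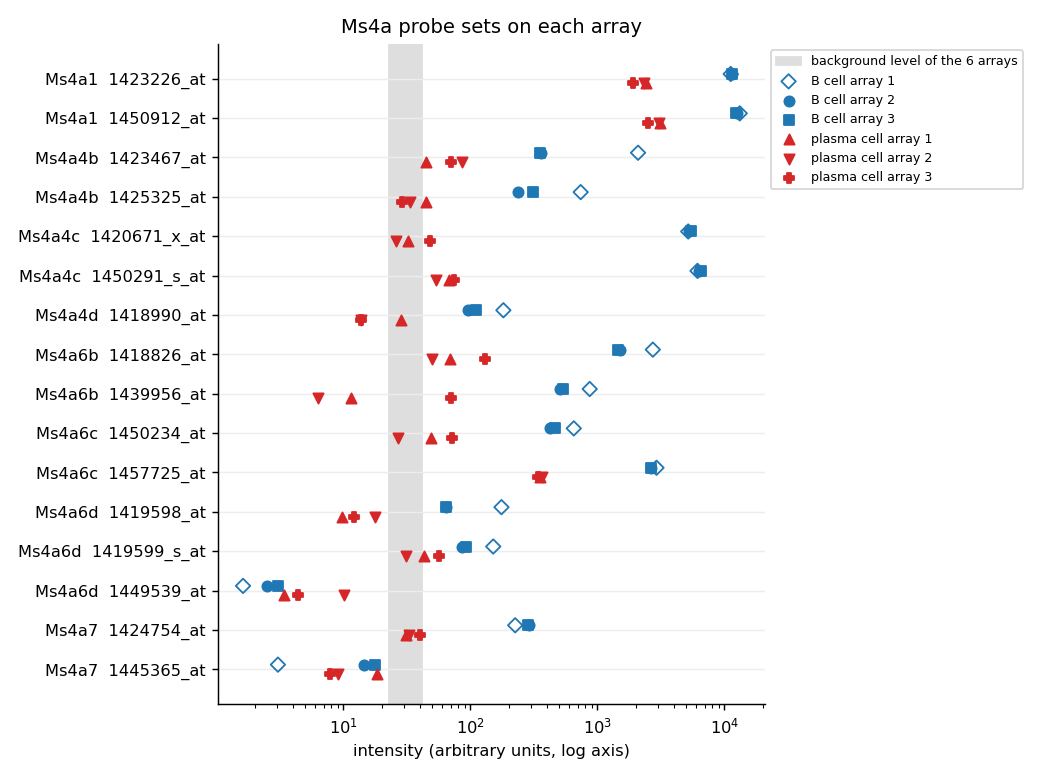
Intensity (arbitrary units, log axis) of each of the 16 Ms4a probe sets on each array; blue symbols are B cell arrays, with array 1 open, red symbols are plasma cell arrays, and the grey band spans the background levels of 23.0 to 41.8. On 14 probe sets the blue symbols lie to the right of all red ones, and the red symbols of Ms4a1 and of 1457725_at of Ms4a6c stay well above the band.

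**Figure D2:**
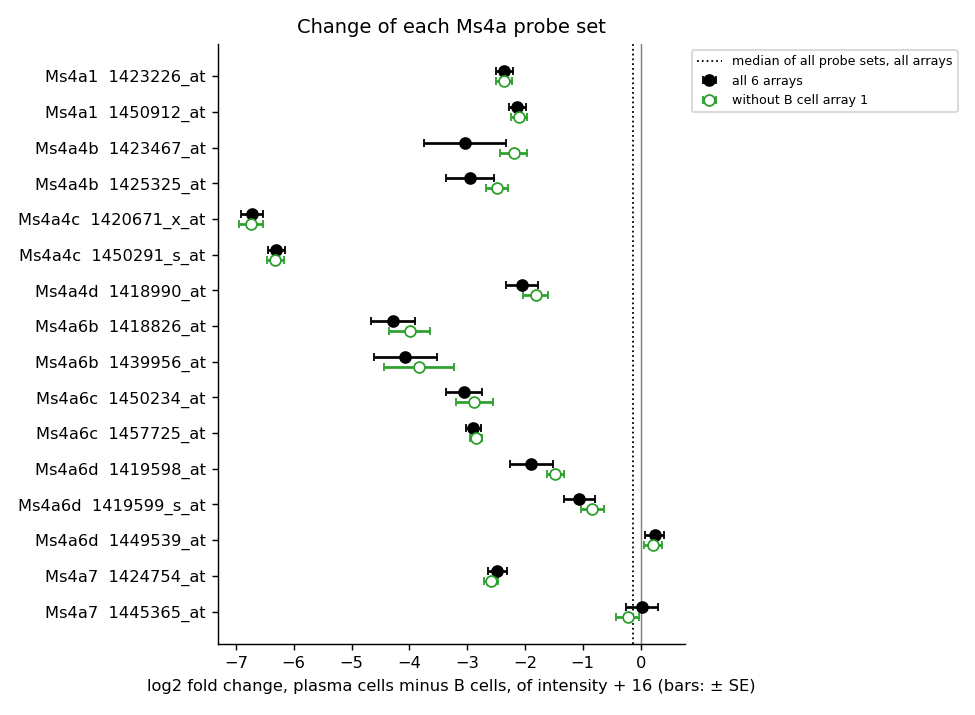
Log2 fold change of intensity + 16, plasma cells minus B cells, for each Ms4a probe set with its standard error, from all 6 arrays (filled) and without B cell array 1 (open). The dotted line marks the median of all probe sets, −0.13, and the values for Ms4a4c are the lowest, at −6.72 and −6.30.

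Ms4a1 was bright in B cells and remained well above background in plasma cells. Its probe set 1450912_at was at 13219, 12680 and 12240 on the B cell arrays and at 3128, 3080 and 2486 on the plasma cell arrays. The B cell values were within 1.08-fold of each other and the plasma cell values within 1.26-fold, and the groups were far apart. This gave a log2 fold change of −2.13 ± 0.15 (SE, limma adjusted p = 0.000303), which is 4.39-fold. The probe set 1423226_at gave 11219, 11472 and 11435 in B cells and 2395, 2338 and 1921 in plasma cells. Its log2 fold change was −2.36 ± 0.14 (adjusted p = 0.000195), so both probe sets of the CD20 gene showed a fall of similar size. B cell array 1 did not stand out in either, and without it the changes were −2.11 and −2.37. Its plasma cell values, 1921 to 3128 over both probe sets, were far above the highest background level of 41.8.

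Ms4a4c had the lowest fold change in the family. Its probe set 1450291_s_at was at 6143, 6336 and 6516 on the B cell arrays and at 67.7, 53.4 and 74.1 on the plasma cell arrays. Between the groups the log2 fold change was −6.30 ± 0.15 (limma adjusted p = 3.51e-05). The probe set 1420671_x_at read 5192, 5275 and 5493 in B cells and 32.3, 25.8 and 48.0 in plasma cells, with a log2 fold change of −6.72 ± 0.19 (adjusted p = 3.56e-05). Those plasma cell values were just over the background of each array, and the change was −5.77 with 64 added and −7.24 with 1 added. B cells therefore held Ms4a4c evenly, array 1 included, and plasma cells held it at or near the floor of detection. The suffixes s and x mark probe sets whose probes may match more than 1 transcript. Ms4a4c has no other probe set with a single annotated symbol, so signal from a close relative cannot be separated from its own.

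Ms4a4b, known from T cells, where its protein associates with the co-stimulatory receptor GITR, had a different spread. Its probe set 1423467_at was at 2091 on B cell array 1 but at 358 and 356 on arrays 2 and 3, and at 44.4, 86.5 and 70.6 on the plasma cell arrays. The groups did not overlap, yet the B cell values spanned 5.88-fold. The log2 fold change was −3.03 ± 0.71 (limma adjusted p = 0.0249), and −2.20 ± 0.24 without B cell array 1 (adjusted p = 0.00208). That call ended when any 1 plasma cell array was left out (adjusted p = 0.0920, 0.0681 and 0.0763 without arrays 1, 2 and 3). The probe set 1425325_at showed the same unevenness with 739, 236 and 310 in B cells, and 44.7, 33.5 and 28.7 in plasma cells, of which the lowest was within background. Its log2 fold change was −2.95 ± 0.42 (adjusted p = 0.00391), −2.17 with 64 added, and −2.48 ± 0.19 without B cell array 1 (adjusted p = 0.000715). Both probe sets thus fell with and without the array that stood apart, by less without it.

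Ms4a4d was dimmer. Its probe set 1418990_at was at 182, 95.8 and 112 on the B cell arrays and at 28.4, 13.8 and 13.8 on the plasma cell arrays, where array 1 alone was over background. The log2 fold change was −2.05 ± 0.28 (limma adjusted p = 0.0034), and since the plasma cell values lie around background its size depends on the added constant, from −1.21 with 64 added to −2.76 with 1 added.

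The stretches just before the transcription starts of Ms4a4c and Ms4a4b are near copies, and this pair was chosen after the sequences were seen. The plasma cell signal of both genes was low, while their B cell signals behaved differently from array to array. Any part of the sequences in this was not tested. Of the 8 genes, 6 had promoter entries in the RefSeq table of build GRCm38.p6, 7 entries in all. Ms4a1 and Ms4a6d had none, so the promoter of the CD20 gene was not searched. A local alignment of the 250 bases upstream of each start matched 114 of 128 aligned positions, 89.1%. The stretches, both on the plus strand, are chr19:11407533-11407660 for Ms4a4c and chr19:11443427-11443553 for Ms4a4b, with capitals where they differ.
Ms4a4c: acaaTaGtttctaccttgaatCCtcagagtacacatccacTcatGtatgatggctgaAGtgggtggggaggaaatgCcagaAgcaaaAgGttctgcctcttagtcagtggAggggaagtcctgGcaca
Ms4a4b: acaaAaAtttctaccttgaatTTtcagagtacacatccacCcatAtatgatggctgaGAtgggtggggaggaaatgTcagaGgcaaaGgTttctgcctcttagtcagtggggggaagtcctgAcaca

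The alignment did not extend further upstream, and there Ms4a4c alone among the 7 entries held the octamer ATTTGCAT, the letters recognised by the Oct factors of B cells. On either strand 1.74% of all 32851 promoter windows of 300 bases hold it. Its surroundings in Ms4a4c, chr19:11407475-11407514 on the plus strand, are shown with the octamer in capitals.
Ms4a4c octamer: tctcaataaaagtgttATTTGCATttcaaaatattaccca
The letters GAGGAAG, 1 form of the core of PU.1 sites, were in 0 of the 7 entries and in 13.6% of all windows. Only these exact letters were searched, so the run gaggaaa in both stretches of Ms4a4c and Ms4a4b above was not counted. The E-box CAGCTG was in 1 entry, that of Ms4a4d, and in 16.3% of all windows. These matches describe letters in a window and not sites of binding.

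Ms4a6b, also known from T cells, fell strongly. Its probe set 1418826_at was at 2734, 1503 and 1449 on the B cell arrays and at 69.3, 49.6 and 131 on the plasma cell arrays. B cell array 1 was the highest of its group, plasma cell array 3 the highest of the other, and the groups stayed far apart. The log2 fold change was −4.29 ± 0.39 (limma adjusted p = 0.000733), and −3.99 ± 0.35 without B cell array 1. The probe set 1439956_at was at 870, 506 and 532 in B cells and at 11.4, 6.3 and 70.7 in plasma cells. Plasma cell array 3 alone lay over background there. Its log2 fold change was −4.07 ± 0.54 (adjusted p = 0.00315), and the size depends on the added constant, from −2.93 with 64 added to −5.05 with 1 added. Without plasma cell array 3 it was −4.68. The T and NK cell markers described below had their highest sum among plasma cell arrays on the same array, 5809, of which Il7r made 2834. Cd8a and Cd8b1 were lowest there among plasma cell arrays. Genes of other lists, such as Ebf1 (3824) and Cd72 (2575), were also highest on that array, while Cr2 and Pax5 were not. The part of any of these genes or cell types in the Ms4a6b values was not tested.

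Ms4a6c was even within each group by its probe set 1457725_at. That probe set was at 2921, 2648 and 2647 on the B cell arrays and at 356, 369 and 338 on the plasma cell arrays, so a clear signal remained in plasma cells. The log2 fold change was −2.89 ± 0.13 (limma adjusted p = 8.75e-05). Its dimmer probe set 1450234_at was at 652, 422 and 467 in B cells and at 49.2, 26.8 and 71.9 in plasma cells, with a log2 fold change of −3.06 ± 0.31 (adjusted p = 0.00112), or −2.35 with 64 added. With 16 added, the sizes given by the pair of probe sets were within their standard errors of each other.

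Ms4a6b and Ms4a6c also share most of their upstream sequence, and this pair too was chosen after the sequences were seen. Both genes fell, with different sizes, and any part of the sequences in this was not tested. A local alignment of their 250 upstream bases matched 152 of 182 positions, 83.5%. The match lay at different distances from the starts, −175 to −2 in Ms4a6c and −248 to −71 in Ms4a6b. The stretches are chr19:11469193-11469366 for Ms4a6c and chr19:11518311-11518488 for Ms4a6b, both on the plus strand, again with capitals where they differ.
Ms4a6c: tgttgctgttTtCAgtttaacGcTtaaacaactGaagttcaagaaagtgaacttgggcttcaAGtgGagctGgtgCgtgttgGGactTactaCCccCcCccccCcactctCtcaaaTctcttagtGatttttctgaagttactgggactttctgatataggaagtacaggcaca
Ms4a6b: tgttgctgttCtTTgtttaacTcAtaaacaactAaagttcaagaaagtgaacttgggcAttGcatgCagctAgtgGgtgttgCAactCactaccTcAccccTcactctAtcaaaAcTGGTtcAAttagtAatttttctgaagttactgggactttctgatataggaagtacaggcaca

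Ms4a6d, known from macrophages, was dim in B cells and its probe sets differed. The probe set 1419598_at was at 176, 64.5 and 64.8 on the B cell arrays and at 9.7, 17.9 and 12.0 on the plasma cell arrays, all of the latter within background. Its log2 fold change was −1.89 ± 0.37 (limma adjusted p = 0.0129), a level at least 2.96-fold lower in plasma cells when these are set to the background of their arrays. With 64 added in place of 16 the change was −1.04, and with 1 added −2.73. The probe set 1419599_s_at was at 151, 85.3 and 92.2 in B cells and at 43.3, 31.2 and 56.6 in plasma cells, with a log2 fold change of −1.06 ± 0.26 (adjusted p = 0.0303). B cell array 1 was the highest in both, and without it the changes were −1.48 ± 0.15 (adjusted p = 0.0016) and −0.83 ± 0.20 (adjusted p = 0.0272). For 1419598_at the call ended without plasma cell array 1 (adjusted p = 0.0572) or 3 (0.0513). For 1419599_s_at it ended without B cell array 3 (adjusted p = 0.0627) or plasma cell array 1 (0.0973) or 2 (0.104). The third probe set, 1449539_at, was between 1.6 and 10.1 on all arrays, within background, and gives no level for either group.

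Ms4a7, a gene used as a marker of macrophages and microglia, was measured in B cells by 1 of its 2 probe sets. The probe set 1424754_at was at 225, 287 and 285 on the B cell arrays and at 30.9, 32.7 and 39.9 on the plasma cell arrays, the last within the background of its array. This corresponds to a log2 fold change of −2.48 ± 0.16 (limma adjusted p = 0.000236), from −1.74 with 64 added to −2.91 with 1 added. Here B cell array 1 was the lowest of its group, and without it the change was −2.59 ± 0.12. The probe set 1445365_at lay within background on all 6 arrays, between 3.1 and 18.5, and was not called (adjusted p = 0.956). Averaging the pair would give −1.23 for the gene (adjusted p = 0.0039), since it mixes a measured probe set with an unmeasured one.

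B cell array 1 was the highest B cell array for 10 of the 16 probe sets, where it was the highest for 47.5% of all probe sets. On 3, namely both of Ms4a4b and 1419598_at of Ms4a6d, it was at least 2-fold above the mean of arrays 2 and 3, as it was on 16.9% of all probe sets. For Ms4a4b the log2 differences were 2.50 and 1.40, while those of Ms4a1 were 0.09 and −0.03 and those of Ms4a4c −0.06 and −0.05. Among 12 measured markers of T and NK cells, 11 were highest on that array, and their summed intensity was 7591 there against 1178 and 1193 on arrays 2 and 3. Prf1, the 1 marker not highest there, made 781 and 763 of the sums on arrays 2 and 3. At most 4 of the 12 markers lay within background on any B cell array, 1 on array 1, 4 on array 2 and 2 on array 3. Cd3e, which encodes a signalling chain of the T cell receptor, read 1965, 27.2 and 36.5. On the plasma cell arrays the sums were 2720, 2330 and 5809. Of 13 monocyte and macrophage markers 11 were highest on B cell array 1, with sums of 7124 against 4195 and 4650, and between 3593 and 4261 on the plasma cell arrays, and at most 3 lay within background on any array. Lyz2 alone made 4128, 2529 and 2833 of the sums on the B cell arrays, and 470, 877 and 690 of those on the plasma cell arrays. Csf1r, a defining receptor of monocytes and macrophages, was at 423, 287 and 325 in B cells and at 49.2, 75.5 and 208 in plasma cells. Its fall was not called without B cell array 1 (limma adjusted p = 0.0768). Lyz2, Adgre1 and Ccr2 had log2 fold changes of −2.21, −2.19 and −1.60, and were called lower with and without that array. Of the 13 markers 2 went the opposite way and were called higher. Mrc1, the mannose receptor, was at 76.1 ± 57.7 (SD, n = 3) in B cells and 1189 ± 118 in plasma cells. The lysosomal protein gene Cd68 was at 311 ± 27.8 and 1082 ± 48.8. Of 9 granulocyte markers 8 were highest on B cell array 1, where the list summed to 12833 against 2929 and 1928. S100a8 and S100a9 made 4444 and 6238 of the sum on B cell array 1. On the plasma cell arrays the granulocyte markers summed to between 8500 and 20050. All 5 measured erythroid markers were highest on B cell array 1, with a sum of 1473 against 79.3 and 90.03, and between 219 and 529 on the plasma cell arrays. Of 6 basophil, mast cell and eosinophil markers 4 were highest there, with a sum of 771 against 239 and 344, and 130 to 161 on the plasma cell arrays. Dendritic cell markers summed to 728, 670 and 649 on the B cell arrays. Of the T and NK cell, macrophage and granulocyte lists, 0, 4 and 1 genes fell in plasma cells and 1, 2 and 1 rose. Without B cell array 1, these counts were 1, 4 and 1 lower and 4, 5 and 7 higher. The part of other cell types in the B cell levels of Ms4a4b, Ms4a4d, Ms4a6b, Ms4a6d and Ms4a7 was not tested. Of the 14 probe sets that fell, all were also called lower without B cell array 1, as given above.

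**Figure D3:**
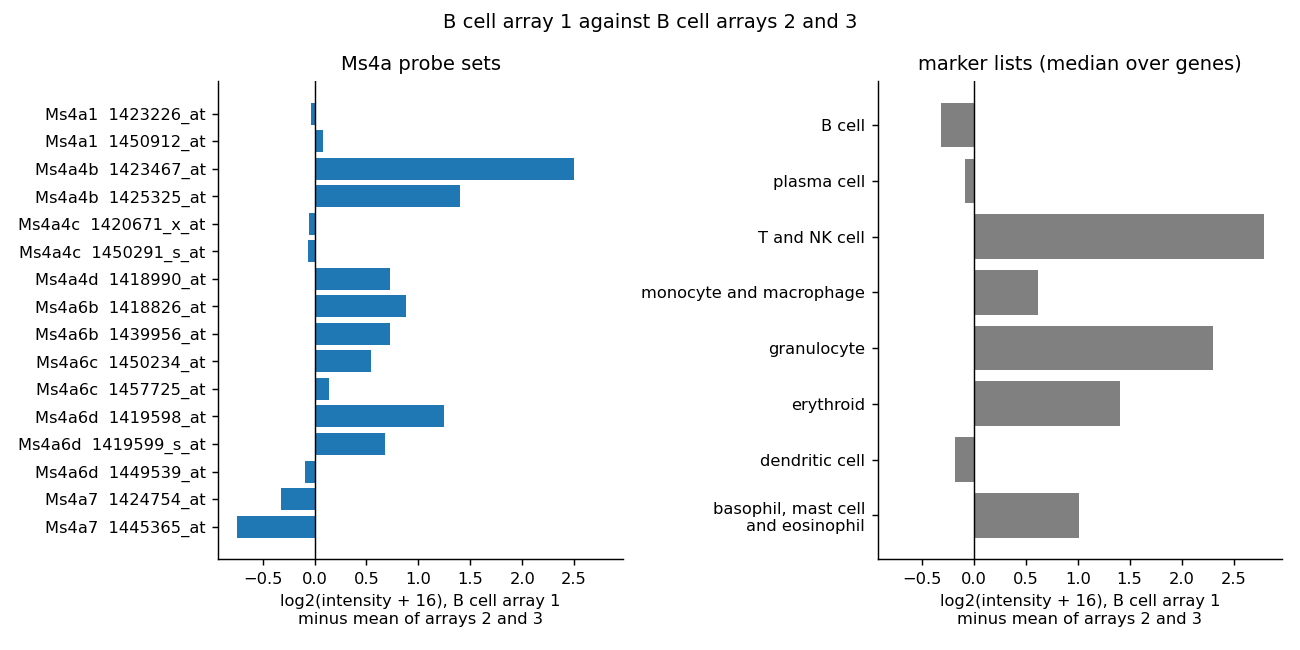
Difference in log2(intensity + 16) between B cell array 1 and the mean of B cell arrays 2 and 3, for each Ms4a probe set (left) and as the median over the genes of each marker list (right). The bars of Ms4a4b reach 2.50 and 1.40 and the T and NK cell list 2.79, while Ms4a1 and Ms4a4c lie within 0.09 of 0.

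The other Ms4a genes on the array were mostly near background. Of 10 probe sets of 9 such genes 1 fell and 0 rose. The one that fell was that of Ms4a15, from 57.1 ± 2.5 in B cells to 28.6 ± 5.0 in plasma cells (log2 fold change −0.72 ± 0.14, limma adjusted p = 0.0138). Ms4a3, a regulator known from granulocyte and monocyte precursors, was at 323, 96.2 and 104 on the B cell arrays and at 225, 187 and 191 on the plasma cell arrays, and was not called (adjusted p = 0.568). Without B cell array 1, Ms4a3 was called higher in plasma cells, by 0.90 ± 0.12 (adjusted p = 0.00431). Ms4a18 was also called higher without that array (0.88 ± 0.20, adjusted p = 0.0215), from values within background in B cells. Ms4a2, the beta chain of the high-affinity IgE receptor of mast cells and basophils, was between 12.9 and 88.4 over its 2 probe sets and was not called. Tmem176a and Tmem176b, relatives with a similar membrane topology that lie elsewhere in the genome, went the opposite way, with log2 fold changes of 6.31 ± 0.19 and 5.90 ± 0.25 in their brightest probe sets (adjusted p = 4.42e-05 and 7.47e-05).

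In the order of protein-coding genes on chromosome 19, the 8 members lay in a run that starts with Ms4a1 and ends with Ms4a6d. The stretch from the outermost Ms4a genes with 5 further genes on each side held 32 genes, 21 of them named Ms4a and 17 of these measured. The 7 measured Ms4a genes before Ms4a1 and the 2 after Ms4a6d, Ms4a2 and Ms4a3, had log2 fold changes between −0.72 and 0.70 in their brightest probe sets. The 8 members had −1.06 to −6.30. Of the measured Ms4a genes outside the run, only Ms4a15 and Ms4a3 were above background on all 3 B cell arrays, and Ms4a15 was called lower. Ms4a10, Ms4a13 and Ms4a19 lay within background on all arrays, so no fall could be seen there. The rest were within background on 1 or more B cell arrays. These ranges therefore do not show where the falling genes end. Ms4a5, Ms4a14 and Ms4a4a also lie in the run and had no probe set with a single annotated symbol. Inside it lay 1 gene of another name, Gm8369, between Ms4a6c and Ms4a6b. Gm8369 was at 3156, 2930 and 3180 on the B cell arrays and at 8.8, 19.1 and 16.9 on the plasma cell arrays, where it was within background. Its log2 fold change was −6.67 ± 0.17 (limma adjusted p = 3.56e-05), a level at least 101-fold lower in plasma cells. On the far side of Ms4a3 some genes went the opposite way to the members, while Oosp3 (−0.55) and Cblif (−0.63) were not called. Oosp2 and Oosp1, named after oocyte-secreted proteins, were 5.72 ± 0.42 and 6.44 ± 0.18 higher (log2) in plasma cells (adjusted p = 0.000371 and 3.56e-05), with Oosp1 at 10417 ± 646 (SD, n = 3) against 106 ± 23.3 in B cells. In all, 3 of the 11 genes without an Ms4a name rose and 1 fell. Gene order was taken from the RefSeq table, which may not be the build of the array's annotation.

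**Figure D4:**
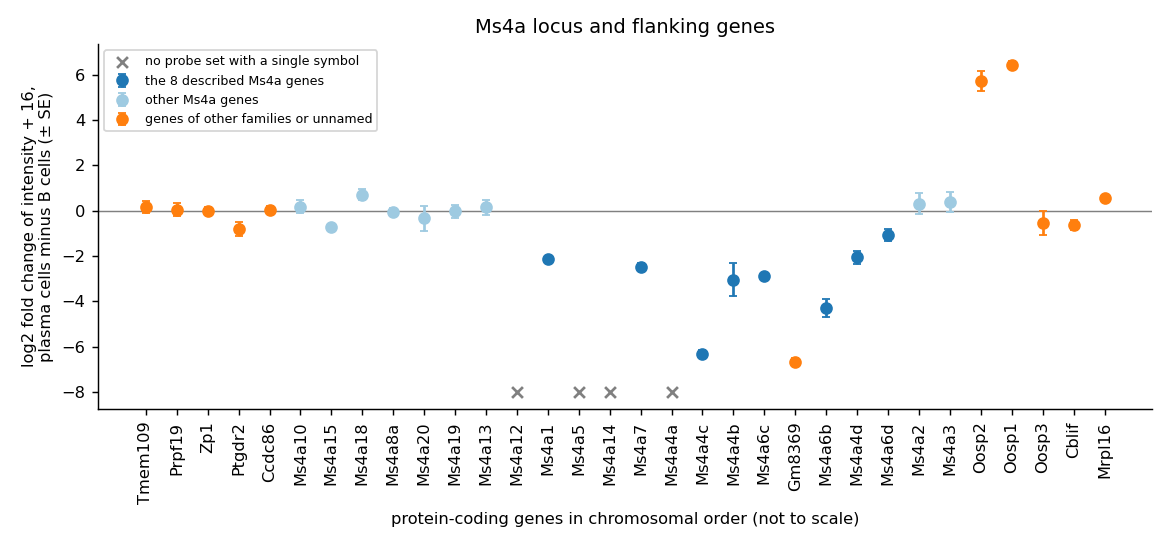
Log2 fold change of intensity + 16, plasma cells minus B cells, with its standard error, for the brightest probe set of each protein-coding gene in chromosomal order across the Ms4a cluster. Crosses mark Ms4a genes without a probe set of a single annotated symbol. The 8 members lie between −1.06 and −6.30, Gm8369 among them lies at −6.67, and Oosp2 and Oosp1 next to the cluster lie at 5.72 and 6.44.

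Genes listed as partners of CD20 shared its direction in part. Among 19 listed surface partners and kinases of the B cell receptor, 17 were measured, of which 10 fell and 2 rose, with a median log2 fold change of −1.25 against −0.13 over all probe sets. On the log2 scale the co-receptors Cr2 and Cd22 fell by 6.10 and 5.96. Cd40 fell by 2.23 and the receptor-associated kinase Blk fell by 2.39. The tetraspanin gene Cd81 rose by 0.55 and Ighm, the IgM heavy chain gene, by 0.98, while Cd53 was at −0.04 and was not called. The receptor form and the secreted form of the IgM heavy chain were not told apart. Among 11 listed transcription factors with a part in CD20 or B cell gene expression, 10 were measured, 6 fell and 2 rose, with a median of −1.11. Spi1, which encodes PU.1, fell by 1.49 ± 0.21 (limma adjusted p = 0.00383), the Oct factor gene Pou2f2 fell by 1.21 ± 0.15 (adjusted p = 0.00261) and Irf8 fell by 2.11 ± 0.25 (adjusted p = 0.00197). Irf4 rose by 1.12 and Tfe3 by 0.61. The share of all probe sets called lower was 12.8%, as above.

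The genes with the profile nearest to each member were found by the root mean square difference of log2 values centred per gene over the 6 arrays. This is a description, and the arrays form 2 clusters. Where a gene lies within background in plasma cells, its closeness depends on the floor and the added constant, so it has no exact rank. That holds for all plasma cell arrays of Ppargc1a, Ccr1, Coa4, Myo1f, Sp3os and Zdbf2, and for 1 or more of those of Fn1, Ackr2, Ciita, Mefv, Clec4a3 and Pglyrp2. It also holds for the members Ms4a4d and Ms4a7, within background on 1 or more plasma cell arrays, so all their distances depend on the floor. Zdbf2 was within background on B cell arrays 2 and 3 as well, at 16.3 and 24.6. Nearest to Ms4a1 were the fibronectin gene Fn1 (0.08), the decoy chemokine receptor gene Ackr2 (0.11) and Tent5a (0.13). Nearest to Ms4a4c were Fcer2a (0.18), the class II transactivator Ciita (0.19) and the complement receptor gene Cr2 (0.19), which were bright in B cells and near background in plasma cells, as Ms4a4c was. Nearest to Ms4a4b were the coactivator gene Ppargc1a (0.29), the chemokine receptor gene Ccr1 (0.32) and Coa4 (0.37), which were also highest on B cell array 1, by 1.94, 1.78 and 2.23 on the log2 scale. The nearest to Ms4a7 were the follicle-guiding receptor gene Gpr183 (0.06), Blk (0.06) and Irak3 (0.07). Ms4a6c came closest to the costimulatory ligand gene Cd86 (0.13), Sesn3 (0.13) and Trim34a (0.14). For Ms4a6b these were Myo1f (0.31), Gcnt1 (0.31) and Pglyrp2 (0.35), for Ms4a4d Mefv (0.19), Clec4a3 (0.21) and Trim5 (0.23), and for Ms4a6d Sp3os (0.08), Zdbf2 (0.09) and Ifit1 (0.10).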

How the data were processed

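The values analysed are the intensities the authors deposited, linear and never negative, for each probe set of the 6 arrays. Their probe summary, background correction and scaling are not given in the sources used here. RNA was purified with a kit for small inputs, amplified with NuGEN Ovation V2 and biotin-labelled, per the labels' protocols. Of 45101 probe sets 64 controls were left out, and 0 sample columns were left unmatched. Symbols came from the 2016 platform annotation (1 symbol for 34945 probe sets, several for 932, none here for 9160), updated by Entrez identifier through RefSeq for 34741.

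Log2(intensity + 16) was tested with limma 3.58.1 in R 4.3.3 (lmFit, eBayes, two-sided), with every probe set on its own and Benjamini-Hochberg adjustment over all of them at 0.05. The fit was tested on simulated data. SE is that of the fitted log2 fold change, SD that over 3 arrays. Precision is limited by the number of arrays. The members, gene lists and settings were chosen with earlier results of these data known. Named genes were the members, the other Ms4a genes, Tmem176a and Tmem176b, the 3 nearest profiles per member (predicted genes left out), neighbours within 5 genes of the cluster and fixed partner and regulator lists, of which those named with values were chosen after their values were seen. Promoter stretches were aligned with Biopython 1.88, and the pairs were chosen after the sequences were seen. Marker lists for B cells, plasma cells, erythroid cells, dendritic cells and basophils, mast cells and eosinophils were also computed. Of these lists 5 of 6, 0 of 6, 0 of 5, 2 of 6 and 1 of 6 measured genes were called lower in plasma cells and 0, 6, 0, 1 and 0 higher.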

Additional observations from a re-analysis of the deposited data

How the results depend on the processing

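The count of 14 Ms4a probe sets lower in plasma cells was also found with a pseudocount of 1 or 64, median centring, quantile normalization, dim probe sets left out, a trend in eBayes and array weights, and 0 were higher under any setting. Median centring moved the median log2 fold change of all probe sets from −0.13 to −0.01, which is small beside those of the 14. The count was 11 of the 13 left without probe sets of suffixes x and s, which removes Ms4a4c, and 8 of 8 genes both with the brightest probe set and with the mean of the probe sets of each gene. Leaving out 1 array gave 11 to 14. Replicate numbers are shared between the groups but the deviations of same-numbered arrays correlated by only 0.05, 0.00 and 0.05, so the numbers were not taken as pairs. With the replicate number as a block 12 were lower, with 1423467_at of Ms4a4b (adjusted p = 0.0600) and 1419599_s_at of Ms4a6d (0.0506) lost. Over all probe sets, 5761 were lower and 6036 higher. Those counts were 3521 lower after median centring, 11396 and 9645 with array weights, 2248 and 3213 with the brightest probe set per gene, and 2344 and 3010 with the mean, the last 2 settings having fewer features tested. Leaving out 1 array gave 3236 to 9331 lower and 4012 to 8155 higher, the highest of both without B cell array 1 and the lowest without plasma cell array 1. The cause was not tested. The sign of 1445365_at of Ms4a7, within background throughout, turned with array weights (−0.11) and over the fits without 1 array, where it ranged from −0.22 to 0.19.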
